A study of Mus musculus with 16 samples.

Results

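The first 2 h of auxin were compared with no auxin in E14 mouse embryonic stem cells that carry Ddx10-AID and Tir1, with 2 libraries on each side. These 4 libraries were taken by their labels from a series of 16, and the change was tested for the 13355 of 14552 listed genes whose mean over all 16 libraries was at least 10 normalized counts. Every group had the same genotype and was grown on gelatin in 15% FBS with LIF at 1000 U/mL, CHIR99021 at 3 µM and PD0325901 at 1 µM. The untreated group received no auxin, and the 2 h group received indole-3-acetic acid at 500 µM. The other groups of the series received auxin for 4, 6 or 12 h, for 1 day or 2 days, or for 2 days followed by 2 days of withdrawal. The messenger RNA was purified from total RNA before library construction. Whether replicates were separate cultures is not said in the labels, and the p-values therefore reflect no more than the spread among the libraries at hand, which may be technical. An untagged line given auxin is not analysed here, so effects of auxin itself and of DDX10 loss cannot be told apart.

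In an auxin degron line, auxin brings a tagged protein to the TIR1 ubiquitin ligase, and the tagged protein is then broken down while its messenger RNA can stay. DDX10 is a nucleolar RNA helicase that takes part in making the small ribosomal subunit. The culture medium blocks MEK with PD0325901 and GSK3 with CHIR99021 and feeds STAT3 with LIF, which keeps mouse embryonic stem cells in the naive state. A further system that matters below is the aryl hydrocarbon receptor, a transcription factor switched on by small aromatic compounds, including indoles. Once bound, it enters the nucleus with its partner ARNT and binds sites with the core GCGTG, and cytochrome P450 genes of the Cyp1 family are its classical targets.

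The promoters of 3 genes are shown: Cyp1b1 and Cyp1a1, which rose, and Chac1, which fell. They are shown because these genes had the largest changes among members of the lists on the aryl hydrocarbon receptor and on the stress factor ATF4, whose motifs are known. Each run is the 250 bases before the RefSeq start on GRCm38.p6, written 5′ to 3′ along the gene's strand, with the motif in capitals. The Cyp1a1 run is chr9:57697363-57697612 on the plus strand, the Cyp1b1 run is chr17:79715062-79715311 on the minus strand, and the Chac1 run is chr2:119350992-119351241 on the plus strand.
Cyp1a1: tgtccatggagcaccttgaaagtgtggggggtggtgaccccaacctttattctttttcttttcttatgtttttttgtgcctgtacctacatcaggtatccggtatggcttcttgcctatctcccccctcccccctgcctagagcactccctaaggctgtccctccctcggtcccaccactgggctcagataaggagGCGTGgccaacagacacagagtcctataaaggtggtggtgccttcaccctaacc
Cyp1b1: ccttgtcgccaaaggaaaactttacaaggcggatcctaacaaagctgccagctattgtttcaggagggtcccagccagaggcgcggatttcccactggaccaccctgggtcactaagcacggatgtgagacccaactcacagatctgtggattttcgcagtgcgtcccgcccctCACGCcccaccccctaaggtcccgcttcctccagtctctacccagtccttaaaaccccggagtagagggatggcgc
Chac1: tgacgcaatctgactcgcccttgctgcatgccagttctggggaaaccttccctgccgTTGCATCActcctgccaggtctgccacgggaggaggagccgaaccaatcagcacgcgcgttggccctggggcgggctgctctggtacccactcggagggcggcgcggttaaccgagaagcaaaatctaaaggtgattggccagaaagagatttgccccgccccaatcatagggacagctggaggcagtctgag
In Cyp1a1 the letters GCGTG lie 54 to 50 bases before the start. In Cyp1b1 they lie 76 to 72 bases before it on the opposite strand, so the run shows CACGC. In Chac1 the capitals mark TGATGNAA, a motif of the type bound by ATF4 with C/EBP proteins, on the opposite strand 193 to 186 bases before the start. Searched on both strands, GCGTG was in 28.2% of all 32851 promoters of this length and in 44.9% of the 12564 promoters of tested genes, so a match is common. TGATGNAA was in 3.45% of all promoters and in 1.88% of those of tested genes. Of the aryl hydrocarbon receptor targets that were tested, 4 of 6 promoters held GCGTG, and of the ATF4 stress effectors, 4 of 15 promoters held TGATGNAA. These matches describe letters only.

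The 4 libraries summed to between 16.4 M and 16.9 M normalized counts, which are sums after the authors' scaling and not read depths. The untreated pair was the less even: the SD of the log2 difference between its replicates was 0.619, against 0.398 for the 2 h pair. Untreated replicate 2 was at least 2-fold below all the other 15 libraries for 70 genes, against 2 to 29 genes for each of the others. Of those 70 genes, 12 were called higher at 2 h and 5 were still called when that library was left out. Markers of embryonic stem cells were high: Pou5f1, Sox2, Nanog, Zfp42, Esrrb, Klf4, Tdgf1 and Dppa5a summed to 107107 and 102233 in the untreated libraries and to 92267 and 91539 at 2 h. The lower sum was not shared by all of them. Both 2 h libraries lay below both untreated ones for Pou5f1, Sox2 and Dppa5a and above them for Nanog and Tdgf1. Zfp42, Esrrb and Klf4 overlapped. Dppa5a went from 21243 and 23631 to 12305 and 11625, a log2 change of -0.91, or -0.32 with the trend in length and GC content removed. Markers of other cells were low. Summed levels were 80.3 and 81.1 against 132 and 94.4 for 6 of 7 primitive endoderm genes and 195 and 176 against 159 and 150.3 for 3 of 7 fibroblast genes. For 5 of 6 genes of 2-cell-like cells they were 741 and 324 against 319.8 and 365, and for 3 of 5 trophoblast genes 141 and 331 against 141 and 106. In bulk RNA, fewer cells of a type and less RNA per cell cannot be told apart.

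The transcript of the tagged gene was present at both times. Ddx10 (chr9:53098635-53248053, minus strand, GRCm38) was at 1433 and 1509 normalized counts in the untreated libraries and at 1848 and 2046 at 2 h. Both 2 h libraries lay above both untreated ones, with a log2 change of 0.40 (SE 0.11, adjusted p = 0.025). The call was lost without untreated replicate 1 (adjusted p = 0.089), without 2 h replicate 1 (adjusted p = 0.051) and without 2 h replicate 2 (adjusted p = 0.19). The degron acts on the protein, so the transcript checks nothing about the loss of DDX10 protein.

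Against untreated, 902 genes were higher at 2 h (6.75% of those tested) and 1128 were lower (8.45%), at a Benjamini-Hochberg adjusted p below 0.05 in limma. The changes were mostly small: 798 of the higher and 943 of the lower genes moved by less than 2-fold. Every called gene had both 2 h libraries on the same side of both untreated ones. That alone is weak, since the 2 h libraries lay above the untreated ones in 27.8% of all tested genes and below them in 28.0%. These counts rested in part on single libraries. They were 166 and 335 without 2 h replicate 2, and 385 and 602 without 2 h replicate 1. Without untreated replicate 1 they were 923 and 852, and without untreated replicate 2 they were 898 and 1369. The counts of the gene lists moved likewise, as given beside them.

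Short transcripts were lower at 2 h and long ones higher. Among the 94 tested genes whose longest annotated transcript was at most 600 bases, the median log2 change was -0.83 and 42.6% were called lower. Among the 1902 genes with transcripts over 6000 bases the median was 0.18, with 15.3% called higher and 2.31% called lower. Across 13286 genes the Spearman correlation of the change with length was 0.33, and within the untreated group replicate 2 minus replicate 1 gave 0.18. Against the mean of 4, 6 and 12 h the correlation was -0.03, and the medians of all length classes lay between 0.01 and 0.04. Levels in the 2, 4, 6 and 12 h libraries thus shared this dependence. Its cause was not tested.

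**Figure D1:**
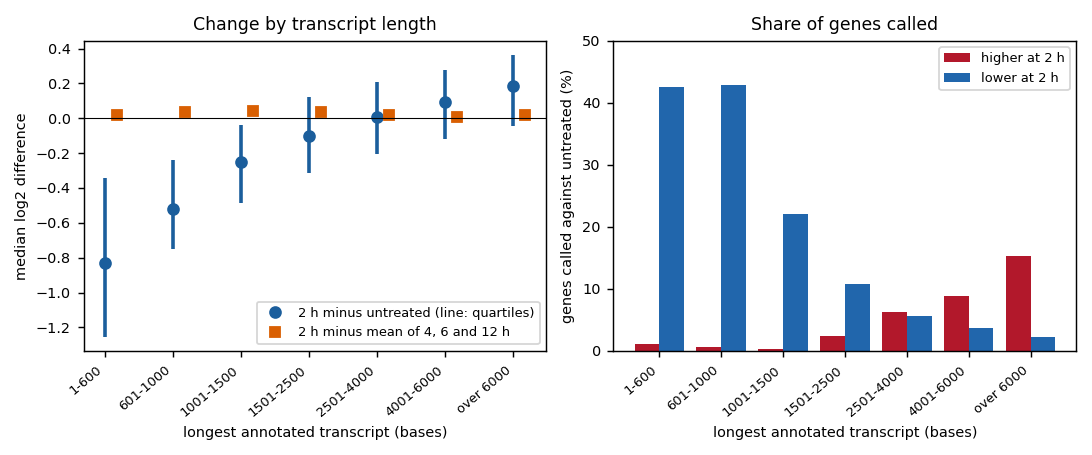
Median log2 difference (left, with quartiles as lines for 2 h minus untreated) and the share of genes called against untreated (right, in percent), by the length in bases of the longest annotated transcript. Against untreated (circles) the median climbs from -0.83 in the shortest class to 0.18 in the longest, while against 4, 6 and 12 h (squares) it stays near 0.

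The shared pattern covered a large part of the called genes. In 3.17% of all tested genes the 8 libraries of 2 to 12 h all lay above the other 8, and in 4.43% all lay below. Among called genes this held for 240 of the 902 higher and 415 of the 1128 lower. A pattern that followed auxin, with all 12 auxin libraries above the 4 without it, was seen in 2.35% of tested genes and in 129 of the 902. The reverse was seen in 4.72% and in 332 of the 1128. The 2 h libraries lay above all 14 others in 5.16% of tested genes and in 290 of the 902, and below all 14 others in 3.17% and in 173 of the 1128. These patterns were defined after earlier results were known, and untreated and 2 h libraries enter both the patterns and the calls.

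A smaller group of genes was called in the same direction in a set of further analyses. Beyond the calls above, 13 further analyses were run: other scalings and pseudocounts, a replicate block, weights, the 2 groups fitted alone, removal of the trend with length and GC content, and each of the 4 libraries left out. In all of them, 77 genes were higher (0.577% of those tested) and 184 were lower (1.38%). Transcript length still ran through these genes, with medians of 4946.5 bases for the higher and 1278 for the lower against 3377.5 for all tested genes. The pattern shared by 2 to 12 h was present in 38 of the 77 and 113 of the 184. The other 39 and 71 genes lacked it, and 8 and 18 of these changed by at least 2-fold. Below, "in every analysis" means these 13. With withdrawal averaged into the reference, which is not among the 13, 76 of the 77 and all 184 were still called, and Dio3 was not. GCGTG was in 51.5% of the 68 promoters matched for 57 of the 77 higher genes and in 52.1% of the 167 matched for 139 of the 184 lower ones, beside 44.9% for tested genes.

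Among genes named by rule, the largest rise was that of RP23-304O9.1, a transcript known by its clone name, at 4.67 and 3.82 normalized counts untreated and 138 and 161 at 2 h (log2 4.84, adjusted p = 0.00059). It was above untreated from 2 to 12 h and low in all other groups. Its replicates were uneven at 4 h (61.4 and 129) and at 6 h (27.1 and 199). The next were classical targets of the aryl hydrocarbon receptor. Cyp1b1, which encodes a cytochrome P450 that oxidizes steroids and aromatic compounds, was at 13.6 and 14.2 normalized counts untreated and at 208 and 218 at 2 h, a log2 change of 3.84 (SE 0.27, adjusted p = 7.9e-06). It ranged from 56.2 to 226 in the later auxin libraries and was at 13.4 and 13.8 after withdrawal. All 12 auxin libraries thus lay above the 4 libraries without auxin. Cyp1a1, its relative and the standard reporter of receptor activity, was at 74.5 and 49.8 untreated and 415 and 328 at 2 h. It was higher still after 4 h, with 987 and 973, and stood at 75.1 and 38.4 after withdrawal. Its log2 change at 2 h was 2.58 (SE 0.25, adjusted p = 6.8e-05). The 2 h level of Cyp1a1 was below both 4 h and both 6 h libraries and above both 12 h ones, and its difference from the mean of 4, 6 and 12 h did not pass the test (log2 -0.52, adjusted p = 0.11). The GCGTG letters of both promoters are shown above.

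Fewer calls came from the rest of the receptor's list. In the whole list of targets 42.9% of tested genes were higher, beside 6.75% of all tested genes. Of 7 tested targets, 3 were higher (2 with either 2 h library left out), 2 of them in every analysis, and the median log2 change was 0.46 beside 0.01 for all tested genes. Nfe2l2, the NRF2 transcription factor, was the third, at 1883 and 1816 untreated and 2292 and 2324 at 2 h (log2 0.32, adjusted p = 0.014). Its call was lost without 2 h replicate 1 (adjusted p = 0.065) and without 2 h replicate 2 (adjusted p = 0.1). Tiparp, an ADP-ribosyltransferase that restrains the receptor, was at 685 and 938 and then 1118 and 1089.6, which did not pass the test (log2 0.46, adjusted p = 0.12). Ahrr, the receptor's repressor, was at 10.4 and 23 and then 26.4 and 64.7, with an adjusted p of 0.13. Aldh3a1, also a listed target, went the other way without passing the test (log2 -0.91, adjusted p = 0.16). The listed target Nqo1 did not pass either (log2 0.10, adjusted p = 0.61). Ahr itself was at 149 and 193 and then 238 and 196 (log2 0.34, adjusted p = 0.15), and its partner Arnt had a log2 change of 0.07.

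**Figure D2:**
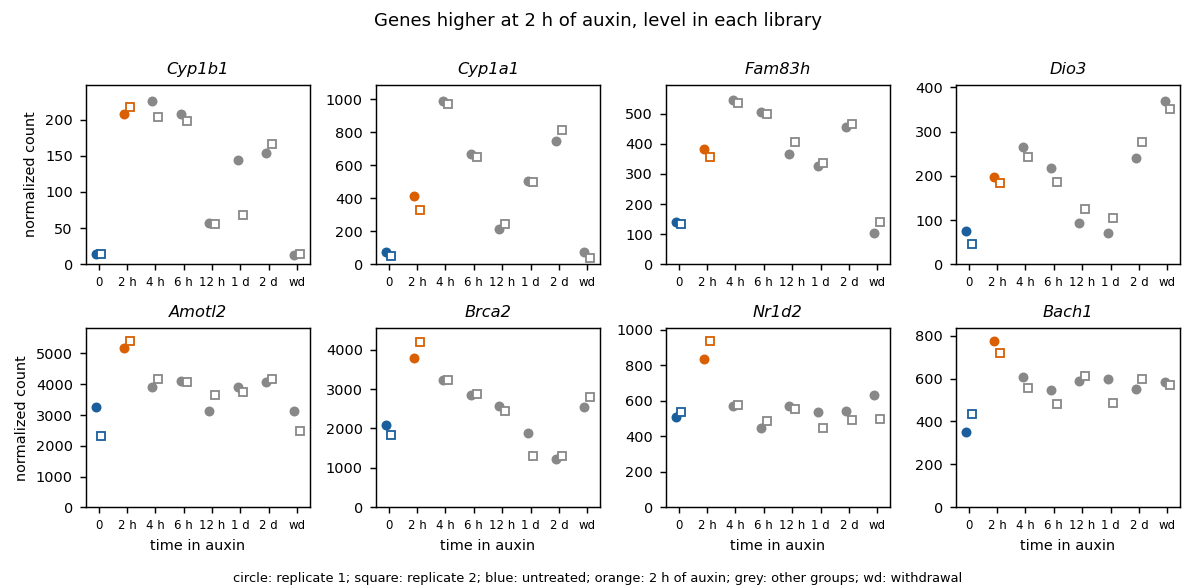
Normalized counts in each library for 8 genes called higher at 2 h in every analysis, by time in auxin (circles replicate 1, squares replicate 2, blue untreated, orange 2 h, grey all other groups, wd withdrawal). Cyp1b1, Cyp1a1 and Fam83h stay above untreated in all auxin groups, while Nr1d2 is high at 2 h only, at 833 and 936 against 446 to 634 in the other 14 libraries.

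Several further genes rose with the auxin libraries or for a few hours. Fam83h, a scaffold protein that binds casein kinase and organizes keratin, was at 140.0 and 134 untreated and 381 and 356 at 2 h (log2 1.42, SE 0.13, adjusted p = 6.6e-05), ranged from 326 to 545 at later auxin times and was at 105 and 142 after withdrawal. Dio3, the deiodinase that inactivates thyroid hormone, was at 76 and 45.9 and then 198 and 184 (log2 1.67, SE 0.24, adjusted p = 0.00067). Unlike Fam83h, Dio3 was highest in the withdrawal libraries, at 370.1 and 352. Against a reference of untreated and withdrawal its log2 change was 0.38 and did not pass (adjusted p = 0.19). The following genes were chosen after their values were seen. Rnf128, a membrane ubiquitin ligase, was at 110.4 and 114 untreated and 267 and 266 at 2 h (log2 1.24, adjusted p = 0.00079), and at 109 and 136 at 12 h. Zbtb7a, a transcriptional repressor, was at 564 and 529.7 and then 1111 and 974 (log2 0.93, adjusted p = 0.00016). It lay above the 4 libraries without auxin in all 12 auxin libraries, as Cyp1b1 did.

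Other genes peaked at 2 h. Nr1d2, which encodes the heme-binding clock repressor REV-ERB beta, was at 509 and 538 untreated and 833 and 936 at 2 h (log2 0.75, SE 0.13, adjusted p = 0.002). It was also higher than at 4 to 12 h (log2 0.74, adjusted p = 0.00036). Both 2 h libraries of Nr1d2 lay above all 14 others. Brca2 and Bach1, chosen after their values were seen, had the same shape. Brca2, which acts in homologous recombination, was at 2083 and 1843 untreated and 3782 and 4186 at 2 h (log2 1.02, SE 0.13, adjusted p = 0.00035), and at 2576 and 2449.8 by 12 h. Its longest transcript has 10724 bases, in the class whose median change was 0.18, and with the trend removed its log2 change was 0.78 (adjusted p = 0.00069). Bach1, a heme-binding repressor of antioxidant genes, was at 350.4 and 433 and then 774 and 721 (log2 0.94, SE 0.13, adjusted p = 0.00052), against 483 to 612 in the remaining 12 libraries. Brca2 and Bach1 lay at 2 h above all 14 other libraries.

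In the lists around these genes, most members were not called. Of 24 genes of sterol synthesis and SREBP2 targets, 6 were higher and 2 lower with a median log2 change of 0.04, beside 6.75% higher and 8.45% lower of all tested genes. With 1 library left out, 2 to 4 were higher and 0 to 3 lower, and Insig1 was among those higher in every analysis. Insig1, which holds SREBP in the endoplasmic reticulum, was at 1413 and 1304 and then 1904 and 1939 (log2 0.50, adjusted p = 0.00094). Of 12 circadian regulators, 3 were higher (1 without 2 h replicate 2), and Nr1d2 was the one called in every analysis. Of 8 YAP and serum response targets, 4 were higher with a median of 0.64 (2 without 2 h replicate 1), and Amotl2 and Vcl were so in every analysis. Amotl2, an angiomotin that binds YAP, was at 3260.1 and 2304 and then 5190.0 and 5397 (log2 0.95, adjusted p = 0.00074). Vcl, the focal adhesion protein vinculin, was at 2455 and 2608 and then 3815 and 3899 (log2 0.61, adjusted p = 0.0018), and shared its rise with the 4 to 12 h libraries.

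The largest falls of the genes named by rule had an uneven untreated pair. Of the 15 largest, 8 were over 2-fold higher in untreated replicate 1 than in replicate 2, 2 were so the other way, and 6 were called in every analysis. Lars2, the mitochondrial leucyl-tRNA synthetase, was at 15693 and 2810.5 untreated and 781 and 703 at 2 h (log2 -3.16, adjusted p = 0.0038), and without untreated replicate 1 its log2 change was -1.92 (adjusted p = 0.014). Serpina3m, a serine protease inhibitor, was at 266 and 16.3 and then 5.13 and 8.29 (log2 -3.17, adjusted p = 0.021), and without untreated replicate 1 at a log2 change of -1.20 (adjusted p = 0.072). H2-Eb1, of the class II histocompatibility complex, and Xlr3c, an X-linked gene, were likewise not called without that library (adjusted p = 0.057 and 0.25). The call on AY036118, with 312 and 66.4 untreated and 20.4 and 2.06 at 2 h (log2 -4.16), was kept without it (adjusted p = 0.038) and lost with the 2 groups fitted alone (adjusted p = 0.093). Both 2 h libraries lay below both untreated ones in these 5 genes, and untreated replicate 1 was over 4-fold above replicate 2 in each.

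Among the genes named by rule that fell in every analysis, Chac1, Lefty2, Id3, Spry4 and Apobec2 had the largest changes. Lefty2, a secreted inhibitor of Nodal and itself a Nodal target, was at 835 and 1374 untreated and 234 and 249 at 2 h (log2 -2.14, SE 0.19, adjusted p = 4.6e-05). Later levels were 378 and 407 after 4 h, 1432 and 1454 after 12 h and 2330.2 and 2381 in withdrawal. The 2 h libraries were thus the lowest of all 16, and the difference from the mean of 4, 6 and 12 h passed the test as well (log2 -1.35, adjusted p = 8.8e-05). Lefty1, its neighbour and relative, was at 317 and 831 and then 177 and 155 (log2 -1.63, adjusted p = 0.0056), a call that was lost without 2 h replicate 2 (adjusted p = 0.061). Of 6 Nodal targets, 3 were lower and 1 higher, and 1 was lower without 2 h replicate 2. The higher one was Pmepa1, a feedback inhibitor, at 220.1 and 208 and then 449.5 and 348 (log2 0.88, adjusted p = 0.003), which did not pass with the 2 groups fitted alone (adjusted p = 0.058). Nodal was at 1156 and 1187 and then 1382 and 1334, with a log2 change of 0.21 (adjusted p = 0.16). In the list of Nodal targets 50% were lower and 16.7% higher, beside 8.45% and 6.75% of all tested genes.

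In the FGF and ERK pathway the largest change was that of Spry4. Spry4, a feedback inhibitor of receptor tyrosine kinases, was at 748 and 584 untreated and 193 and 174 at 2 h (log2 -1.85, SE 0.23, adjusted p = 0.00033). It went on to 56.4 and 64.3 at 12 h and 33.7 and 20.3 at 2 days, and was at 312 and 328 after withdrawal. Of 14 feedback genes and targets, 2 were lower (14.3%) and 1 was higher (7.14%), beside 8.45% and 6.75% of all tested genes, with Spry4 the one called in every analysis. With 1 library left out, 1 to 4 were lower and 0 to 1 higher. Dusp6, an ERK phosphatase and a common readout of the pathway, was at 581 and 520.2 and then 386 and 352, with a log2 change of -0.57 (adjusted p = 0.073). Etv4, an ETS factor induced by FGF, was at 2428 and 1685 and then 2431 and 2497 (log2 0.28, adjusted p = 0.25). The ligand Fgf4 was at 3127 and 3265 and then 4029 and 4022 (log2 0.33, adjusted p = 0.0025), a call lost with the 2 groups fitted alone (adjusted p = 0.071).

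Id3, Dusp1 and Dusp9, which are outside the list of 14 FGF and ERK feedback genes and targets, were lower in every analysis. Id3, a helix-loop-helix inhibitor induced by BMP, was at 863 and 699 and then 177 and 183 (log2 -2.10, SE 0.31, adjusted p = 0.00079). Its level of 117 to 224 at 4 to 12 h was shared with 2 h, while withdrawal had 974 and 836. Of 10 genes of the BMP pathway, 3 were lower and 2 higher, with 1 to 2 lower and 0 to 2 higher when 1 library was left out, and Id3 was the one called in every analysis. Its relatives went both ways, with log2 changes of -1.23 for Id1 (adjusted p = 0.0079) and 0.96 for Id2 (adjusted p = 0.017), and with the 2 groups fitted alone neither passed (adjusted p = 0.11 and 0.092). Dusp1, an immediate early phosphatase of p38 and JNK, was at 635 and 555 and then 333 and 347 (log2 -0.80, SE 0.10, adjusted p = 0.00039), and from 315 to 404 at 4 to 12 h. Of 20 immediate early genes, 4 were higher and 3 lower, and 0 to 5 and 1 to 5 with 1 library left out. Dusp9, a phosphatase of ERK chosen here after its values were seen, was at 1958 and 1884 and then 924 and 899 (log2 -1.07, SE 0.15, adjusted p = 0.00067). The phosphatases Dusp4 and Dusp5 did not pass the test, with log2 changes of -0.17 and -0.08 (adjusted p = 0.74 and 0.84). In the BMP list 30% were lower and 20% higher, and among immediate early genes 15% and 20%. Of all tested genes, 8.45% were lower and 6.75% higher.

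A further pair, also chosen after the values were seen, was lowest at 2 h of all times. Rarg, the gamma retinoic acid receptor, was at 1545 and 1905 untreated and 1059 and 923 at 2 h, against 1275 to 1693 in the other 12 libraries (log2 -0.79, SE 0.11, adjusted p = 0.00066). Cd97, an adhesion receptor, was at 792 and 810.4 and then 462 and 470.4 (log2 -0.78, SE 0.09, adjusted p = 0.00024). It then reached 1525 and 1600.1 at 12 h and 2248 and 2325 at 2 days, so the fall at 2 h came before a level above untreated. By rule, Apobec2, a member of the APOBEC family, was also among the falls, at 165 and 115 and then 34.6 and 41.2 (log2 -1.84, adjusted p = 0.00015), and at 109.9 and 120.2 by 12 h.

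**Figure D3:**
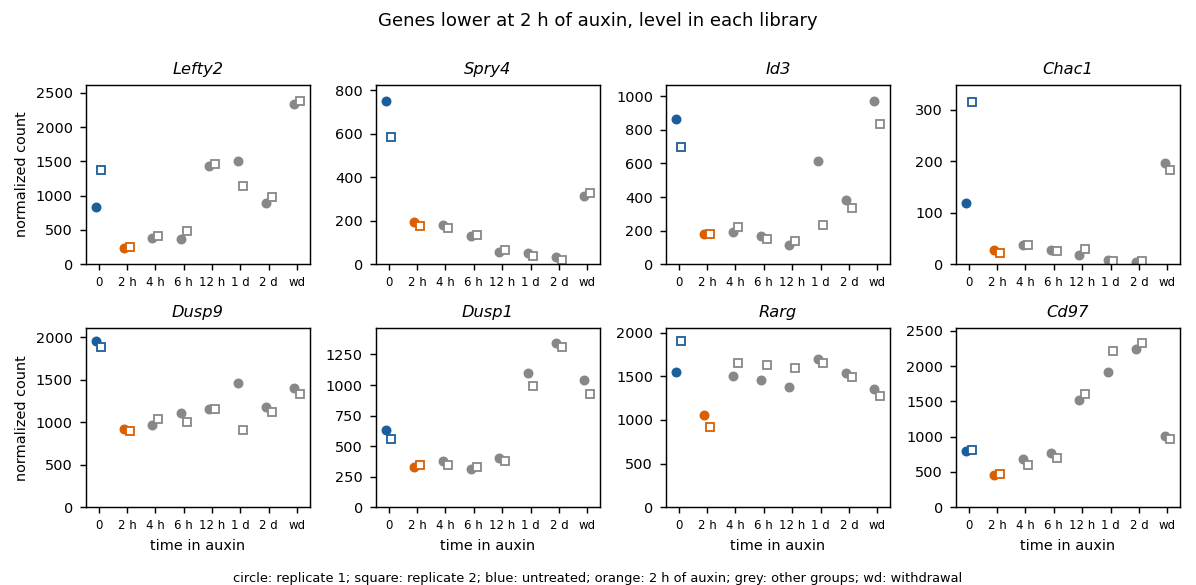
Normalized counts in each library for 8 genes called lower at 2 h in every analysis, by time in auxin (symbols and colours as in the plot of genes higher at 2 h). Lefty2, Rarg and Cd97 are lowest at 2 h, whereas Spry4 and Chac1 go on to lower levels, with Spry4 at 33.7 and 20.3 and Chac1 at 3.57 and 6.52 at 2 days.

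At 2 h against untreated, the called members of the ATF4 and unfolded protein response lists were all lower. Chac1, a glutathione-degrading enzyme induced by ATF4, was at 118 and 316 untreated, 26.7 and 21.8 at 2 h, 3.57 and 6.52 at 2 days and 197 and 183 after withdrawal. Its log2 change at 2 h was -2.95 (SE 0.42, adjusted p = 0.00067), from untreated libraries that themselves differed by more than 2-fold. Of 13 ATF4 stress effectors, 2 were lower with a list median of -0.27 (1 without 2 h replicate 2). The second was Atf4, the factor itself, at 4862 and 5904 and then 3968 and 3843 (log2 -0.46, adjusted p = 0.0067), and this call was lost without 2 h replicate 2 (adjusted p = 0.069). Of 14 genes of the unfolded protein response, 5 were lower (2 to 5 with 1 library left out). They included Herpud1, which serves protein degradation at the endoplasmic reticulum, at 286 and 345 and then 173 and 157 (log2 -0.93, adjusted p = 0.0036), and Manf, a secreted chaperone, at 2899 and 2705 and then 1820.5 and 1638 (log2 -0.70, adjusted p = 0.0034). The call on Manf was lost without 2 h replicate 2 (adjusted p = 0.052), and that on Herpud1 with the 2 groups fitted alone (adjusted p = 0.053). Hspa5, the main chaperone of that compartment, was at 11347 and 9604 and then 10738 and 10697 (log2 0.04, adjusted p = 0.79). The lower genes were 15.4% of the ATF4 list and 35.7% of the unfolded protein response list, beside 8.45% of all tested genes. Median transcripts of these lists had 2019 and 2323 bases, beside 3377.5 for all tested genes. With the trend removed, 2 and 3 genes were lower. The median of the unfolded protein response list then went from -0.14 to -0.06, and none of its genes was called in every analysis.

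Targets of LIF and STAT3 were the list with the highest median among those with 10 or more tested genes, and it moved with untreated replicate 2. Of 12 genes, 5 were higher and 1 lower, with a median log2 change of 0.51. The shares were 41.7% and 8.33%, beside 6.75% and 8.45% of all tested genes. Without untreated replicate 2 the counts were 3 and 2 with a median of 0.28, and without untreated replicate 1 they were 7 higher with a median of 0.86. Without 2 h replicate 1 they were 2 and 0, and without 2 h replicate 2 none was called. Untreated replicate 2 was the lowest of all 16 libraries for 6 of the 12. Socs3, the feedback inhibitor of the LIF receptor, was at 1135 and 58.1 untreated and 1226 and 1073 at 2 h, which did not pass the test (log2 2.15, adjusted p = 0.099). Stat3 was at 2310.1 and 1045 and then 3231 and 3269 (log2 1.06, adjusted p = 0.012), lost without 2 h replicate 1 (adjusted p = 0.059) and without 2 h replicate 2 (adjusted p = 0.082). The 2 h levels of Socs3 and Stat3 were close to or above that of untreated replicate 1.

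Among the lists, respiratory chain subunits held the most lower genes. Of 74 tested, 58 were lower (78.4%, beside 8.45% of all tested genes) with a median log2 change of -0.63. The median transcript of the list had 1093.5 bases. After removal of the trend, 37 were lower with a median of -0.29, and 28 were lower in every analysis. Against 4, 6 and 12 h the list had a median of 0.03, with 2 higher (2.7%, beside 7.00% of all tested genes in that comparison). Ndufc2, a subunit of complex I, was at 1509.6 and 1402 untreated, 528 and 504 at 2 h, 478 to 592 at 4 to 12 h and 1619.5 and 1757 at 1 day (log2 -1.49, adjusted p = 3.1e-06). The level thus stayed low from 2 to 12 h and was back by 1 day. Atp5k, a subunit of ATP synthase chosen after its values were seen, was at 793 and 755 and then 339 and 289 (log2 -1.30, adjusted p = 0.00055). Of 31 proteasome subunits, 13 were lower (6 to 16 with 1 library left out), 4 of them in every analysis. The 13 lower subunits were 41.9% of the proteasome list. Psmb5, the subunit with chymotrypsin-like activity, was at 1663 and 1526 and then 905 and 866 (log2 -0.85, adjusted p = 9.2e-05). Txn1, thioredoxin, and Hspe1, a mitochondrial chaperonin, were also short and lower in every analysis, with log2 changes of -0.71 and -0.77, and of -0.41 and -0.42 with the trend removed. The part of the length dependence in these falls was not tested beyond these values.

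In the pluripotency network the balance of calls moved with single libraries. Of 26 factors, 6 were lower (23.1%, beside 8.45% of all tested genes) and 2 higher (7.69%, beside 6.75%), with a median log2 change of -0.03. The counts were 5 lower and 6 higher without untreated replicate 1, 6 and 1 without untreated replicate 2, 3 and 1 without 2 h replicate 1, and 3 and 0 without 2 h replicate 2, and with the trend removed 2 and 1. Pou5f1, the factor OCT4, was at 23171 and 22339 and then 16408 and 17626 (log2 -0.42, adjusted p = 0.0028), a call lost with the trend removed (adjusted p = 0.086). Nanog was at 15332 and 14325 and then 15530.0 and 15605 (log2 0.07, adjusted p = 0.47). Zfp42, the naive marker REX1, was at 11173 and 12106 and then 11918 and 11615 (log2 0.02, adjusted p = 0.87). Dppa2, a chromatin factor of the early embryo, was the one factor called in every analysis, at 2096 and 2193 and then 1555 and 1561 (log2 -0.46, SE 0.09, adjusted p = 0.0048). Of 13 factors of the formative and primed epiblast, 5 were lower with a median of -0.41 (1 to 6 with 1 library left out). Otx2, a homeobox factor of that state, was at 269.8 and 459 and then 193 and 169 (log2 -0.96, adjusted p = 0.0086), and without 2 h replicate 2 its adjusted p was 0.086. Of 12 genes of the 2-cell stage, 1 was called: Eif1a, a translation initiation factor, at 4466 and 4276 and then 5847 and 5898 (log2 0.43, adjusted p = 0.0037). The list moved with the untreated pair, whose summed markers of 2-cell-like cells differed above. Without untreated replicate 2, 5 of the 12 were lower and 1 higher with a median of -0.95, and without untreated replicate 1, none was lower and 2 were higher with a median of 0.19.

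Factors that build ribosomes, among which DDX10 works, were called in both directions against untreated, at counts that moved with single libraries. Of 51 small-subunit processing factors, 6 were higher and 7 lower with a median log2 change of 0.01, and of 41 large-subunit assembly factors, 3 were higher and 2 lower with a median of 0.03. These were 11.8% and 13.7% of the small-subunit list and 7.32% and 4.88% of the large-subunit list. Of all tested genes, 6.75% were higher and 8.45% lower, so the large-subunit list was not above that background by much in either direction. In the small-subunit list 5 were higher and 1 lower without untreated replicate 1, and 4 and 11 without untreated replicate 2, with 0 to 1 higher and 1 to 3 lower with either 2 h library left out. In the large-subunit list the counts were 3 and 0 without untreated replicate 1, 2 and 4 without untreated replicate 2, and 0 to 1 higher and none lower with either 2 h library left out. Nol7, a nucleolar protein of the small-subunit list, was the one called in every analysis, at 1912 and 1822 and then 1370.5 and 1330.1 (log2 -0.47, adjusted p = 0.0021). Of 15 genes of the RNA polymerase I machinery, 2 were higher (13.3%) and 3 lower (20%), and none was called once the trend was removed. With 1 library left out, 0 to 1 were higher and 0 to 2 lower. For Znrd1, a polymerase I subunit, the log2 change was -0.43 (adjusted p = 0.038), and with the trend removed it was 0.05 (adjusted p = 0.81). The Znrd1 call was also lost without untreated replicate 2 (adjusted p = 0.14), without 2 h replicate 1 (adjusted p = 0.12) and without 2 h replicate 2 (adjusted p = 0.18).

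**Figure D4:**
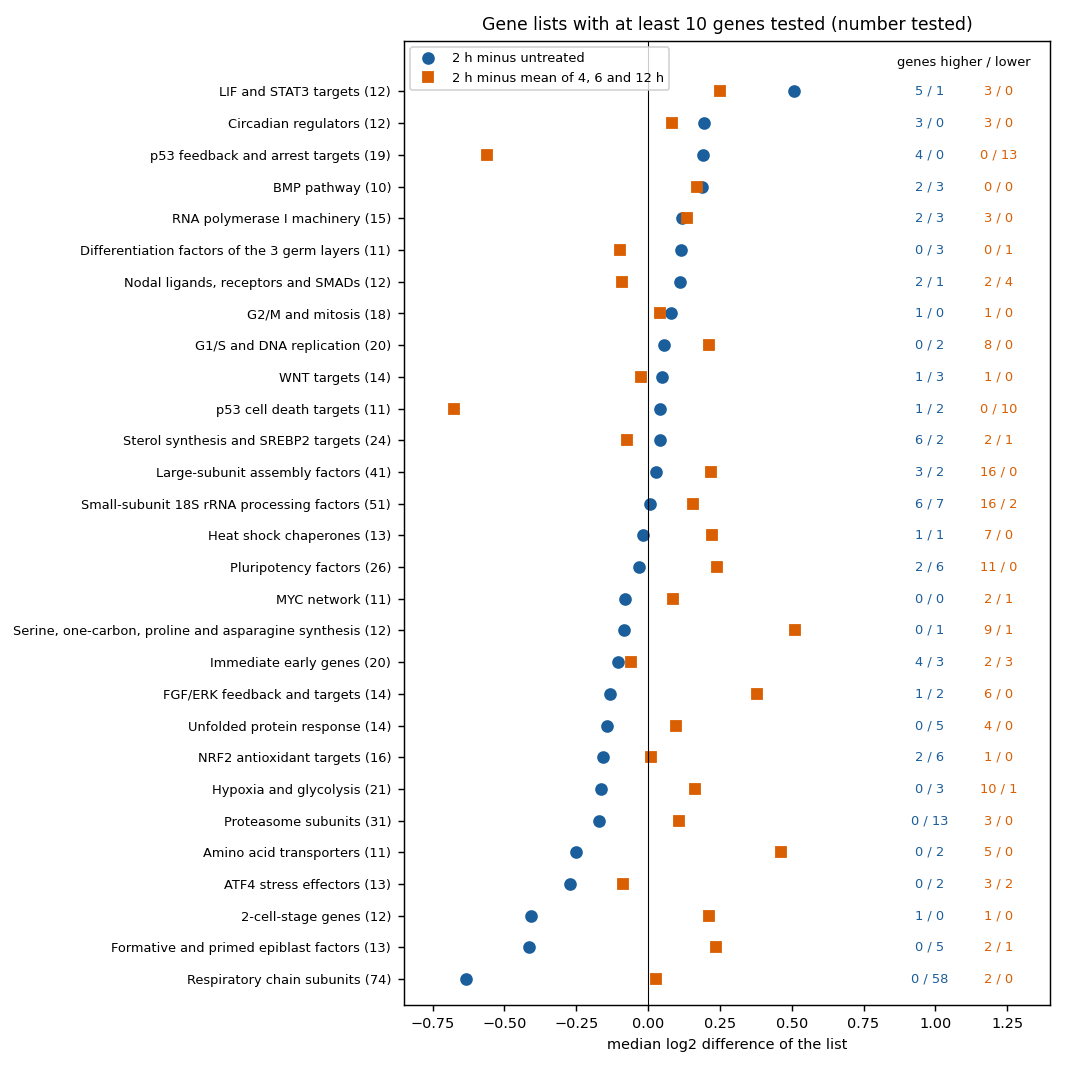
Median log2 difference of each gene list with at least 10 tested genes, for 2 h minus untreated (circles) and 2 h minus the mean of 4, 6 and 12 h (squares), with the number of genes called higher and lower at the right. Respiratory chain subunits have the lowest median against untreated (-0.63) and one near 0 against later times, and both p53 lists lie below 0 against later times only.

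A second comparison set 2 h against the mean of 4, 6 and 12 h, which share the length dependence, to ask what was still to come at 2 h and what was already passing. It uses the same 2 h libraries as the first comparison. There 935 genes were higher at 2 h (7.00% of those tested) and 926 were lower (6.93%). A dependence on GC content did not cancel in this comparison. The Spearman correlation of the difference with GC content was -0.23, beside -0.21 for 2 h against untreated. With the trend in length and GC content removed, 1129 genes were higher and 956 were lower than at 4 to 12 h. In 17 further analyses, 142 genes were always higher (1.06%) and 273 always lower (2.04%), and the genes named below are of these unless another value is given. Without 2 h replicate 2 the counts fell to 197 higher and 365 lower, and without 2 h replicate 1 to 256 and 413. Among the called genes, 38 of the higher and 244 of the lower differed by at least 2-fold.

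Targets of p53, the stress-activated tumour suppressor, were mostly lower at 2 h than later. Against 4 to 12 h, 68.4% of the feedback and arrest targets and 90.9% of the cell death targets were lower, beside 6.93% of all tested genes. Against untreated, 21.1% of the feedback and arrest targets were higher and none lower. In the cell death list 9.09% were higher and 18.2% lower against untreated, beside 6.75% and 8.45% of all tested genes. Of 19 feedback and arrest targets, 13 were lower at 2 h than at 4 to 12 h with a median log2 difference of -0.56, and against untreated 4 were higher with a median of 0.19 (0 to 6 with 1 library left out). Plk2, a kinase chosen after its values were seen, was at 620.3 and 361 untreated, 668 and 633 at 2 h and 2047 to 2561 at 4 to 12 h (log2 -1.82 against 4 to 12 h, adjusted p = 3.9e-06). Mdm2, the ubiquitin ligase that limits p53, was at 2475 and 2434, 3258 and 3236 and 5218 to 6051 in the same order (log2 -0.81, adjusted p = 6.8e-06). Its 2 h level lay between the other groups, and its call against untreated (log2 0.40, adjusted p = 0.0077) was lost without 2 h replicate 2 (adjusted p = 0.062). Cdkn1a, the cell cycle inhibitor p21, was at 1523 and 1537, 1835 and 1618 and 2728 to 3969.9 (log2 -0.84, adjusted p = 3.8e-06). Of 11 p53 cell death targets, 10 were lower at 2 h than later with a median of -0.68 (6 without 2 h replicate 2). Perp, a membrane protein of that list, was at 135 and 80.4, 107 and 108 and 168 to 396 (log2 -1.38, adjusted p = 4.3e-05). Against untreated, 1 of the 11 was higher and 2 were lower. The lower ones were Bax (log2 -0.62, adjusted p = 0.0013) and Pmaip1 (log2 -1.33, adjusted p = 0.00075). The call on Pmaip1 was lost with the 2 groups fitted alone (adjusted p = 0.071). For 3 of the 11, the 2 h libraries lay below all 14 others, so part of the difference from later times was a fall at 2 h.

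Further genes were higher later without having passed the test at 2 h against untreated. Ddit4, an inhibitor of mTORC1, was at 381 and 340.3 untreated, 309 and 288 at 2 h and 954 to 1173 at 4 to 12 h (log2 -1.83, adjusted p = 6.1e-08). Neurod1, a neuronal transcription factor, was at 21.1 and 23.4, 26.8 and 42.8 and 120.5 to 224 (log2 -2.25, adjusted p = 6.3e-06). Notch3, a Notch receptor, was at 572 and 865, 629 and 565 and 1122 to 2991 (log2 -1.64, adjusted p = 9.9e-06). In each of the 3 genes the 2 h libraries lay below all 6 libraries of 4 to 12 h.

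Many genes of amino acid supply were higher at 2 h than later. Of 12 genes of serine, one-carbon, proline and asparagine synthesis, 9 were higher at 2 h than at 4 to 12 h and 1 was lower, with a median log2 difference of 0.51. The shares were 75% and 8.33%, beside 7.00% and 6.93% of all tested genes. The lower call was lost whichever library was left out. Against untreated, 1 of the 12 was called, lower, and it was lost when any library but untreated replicate 1 was left out. Psat1, an enzyme of serine synthesis, was at 9066 and 8326 untreated, 8016 and 8227 at 2 h and 2796 to 6545 at 4 to 12 h (log2 0.83, adjusted p = 3.9e-06). Its log2 change against untreated was -0.10 (adjusted p = 0.44). Lower calls against untreated made up 8.33% of this list and 8.45% of all tested genes. Aldh18a1, of proline synthesis, was at 1788 and 2101, 1589.8 and 1638 and 773 to 1179.7 (log2 0.82, adjusted p = 4.2e-05). Of 11 amino acid transporters, 5 were higher at 2 h than later (45.5%, beside 7.00% of all tested genes). Slc1a4, a carrier of alanine and serine, was at 549 and 812, 512 and 518 and 176 to 290.4 (log2 1.21, adjusted p = 2.4e-05).

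Some factors that build ribosomes were higher at 2 h than later, which rested on having both 2 h libraries. Of 51 small-subunit and 41 large-subunit factors, 16 of each list were higher (31.4% and 39.0%, beside 7.00% of all tested genes), with median log2 differences of 0.16 and 0.22 beside 0.02 for all tested genes. Without 2 h replicate 1 the counts were 3 and 4, and without 2 h replicate 2 they were 2 and 4. Gnl3, a nucleolar GTPase chosen after its values were seen, was at 5008 and 4568 untreated, 4957 and 5175 at 2 h and 3028 and 2955 at 12 h (log2 0.41 against 4 to 12 h, adjusted p = 0.0002).

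Some pluripotency factors (42.3%, beside 7.00% of all tested genes) were also higher at 2 h than later. Of 26, 11 were higher than at 4 to 12 h and 15 did not pass, with a median log2 difference of 0.24, and 4 were higher in all 17 further analyses. Without 2 h replicate 1 the count was 5, and without 2 h replicate 2 it was 4. Utf1 and Nr0b1 were chosen after their values were seen. Utf1, a chromatin factor of these cells, was at 5013 and 4489.7 untreated, 3887 and 3705 at 2 h and 1023 to 2692 at 4 to 12 h (log2 1.07, adjusted p = 9.4e-07). Nr0b1, the nuclear receptor DAX1, was at 2328 and 2232, 2104 and 1821 and 579 to 1792 (log2 0.73, adjusted p = 1.5e-05). Foxd3, a forkhead factor, was at 842 and 593, 886 and 899 and 259 to 539.9 (log2 1.18, adjusted p = 1.0e-05). Outside these lists, Enox1, a surface oxidoreductase, was at 684 and 903, 859.8 and 858 and 77.9 to 425 (log2 2.01, adjusted p = 6.5e-07). In Enox1 and Foxd3 both 2 h libraries lay above all 6 later ones, and the 2 h level did not pass the test against untreated (adjusted p = 0.61 and 0.098).

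**Figure D5:**
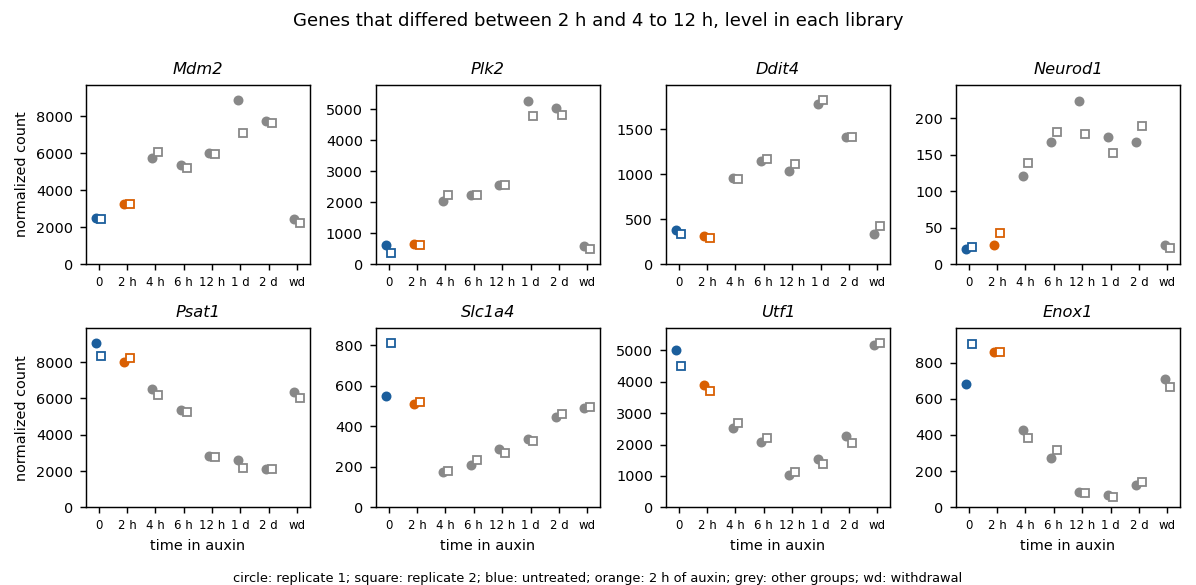
Normalized counts in each library for 8 genes that differed between 2 h and 4 to 12 h, by time in auxin (symbols and colours as in the plot of genes higher at 2 h). In the upper row Mdm2, Plk2, Ddit4 and Neurod1 are lower at 2 h than at 4 to 12 h, with Plk2 at 668 and 633 and then 2047 to 2561. Mdm2 at 2 h lies above both untreated libraries. In the lower row Psat1, Slc1a4, Utf1 and Enox1 are higher at 2 h than at 4 to 12 h.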

How the data were processed

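Per the labels' protocols, a VAHTS Universal V6 kit served for the libraries of messenger RNA. The deposited values are a signal, normalized counts that the authors scaled per library, as the name of the deposited table and its values show. Trim Galore, STAR, RSEM, DESeq2 and the mouse build mm10 are listed in the submitters' processing notes, with versions and roles not given in the sources used here. No count test was run on these values. All 16 libraries entered 1 model of 8 group means on log2(value + 1), fitted in limma 3.58.1 (R 4.3.3) with variance moderated along an intensity trend and 8 residual degrees of freedom, for genes with a mean of at least 10. P-values were adjusted by Benjamini-Hochberg over all 13355 genes and called below 0.05. The pseudocount of 1 understates changes of low genes. Transcript length and GC content came from GENCODE M21 on GRCm38 for 13286 tested genes, and 69 had none. The trend removed was a spline with 4 degrees of freedom in each property. Genes were named by rule: the 15 called genes with the largest change each way against untreated and the 10 each way against 4 to 12 h (mean of at least 50), 12 fixed genes, and members of 41 lists, those with the smallest p or all of a small list. A gene outside the rule is said to have been chosen after its values were seen. The comparison, its members, the lists and the tests were chosen with earlier results of these data known. Alternatives were other pseudocounts, filters, scalings, weights, a replicate block, the groups fitted alone, the trend removed and each library left out. A reference of untreated with withdrawal was added after seeing the data. The scripts were tested on simulated data. Promoters are from RefSeq on GRCm38.p6, matched by symbol for 9813 of 13355 tested genes.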

Additional observations from a re-analysis of the deposited data

How the results depend on the processing

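Against untreated, the 902 higher and 1128 lower genes became 138 and 270 with the 2 groups fitted alone and 462 and 648 with library quality weights. Removing the trend in length and GC content gave 644 and 902, and the counts were 1600 and 1778 with withdrawal added to the reference, chosen after seeing the data. Leaving out 1 library gave 166 to 923 higher and 335 to 1369 lower. Against 4, 6 and 12 h, the 935 and 926 became 1994 and 1547 with those groups fitted alone and 1988 and 1638 with weights, and 197 to 759 and 365 to 812 with 1 library left out. The log2 change of Ddx10 kept its direction at 0.403 with the groups alone (adjusted p = 0.078), 0.345 with the replicate block and the trend removed (adjusted p = 0.053), and 0.329 to 0.476 with 1 library left out (adjusted p = 0.051 to 0.19 where the call was lost). Of the 372 named genes, 136 were called against untreated, and 1 of these changed direction: Znrd1 went from -0.43 to 0.054 with the trend removed, with and without the block. Of the 236 not called, 118 changed sign in some analysis and 4 of them then passed: Mt2 (0.397 with the trend removed), Matn1 (1.243 without untreated replicate 1), Enpp3 (0.761 without untreated replicate 2) and Phgdh (0.244 with withdrawal in the reference). Against 4 to 12 h, none of 127 called genes changed direction, and 66 of 245 others changed sign without passing. Fits that left some libraries out had fewer libraries, and the cause of these changes was not tested. Replicate numbers did not pair the samples: same-numbered deviations correlated at 0.013 for untreated and 2 h, and from -0.061 to 0.066 over all 28 pairs of groups. The replicate block gave 834 and 1054 against untreated and 917 and 903 against 4 to 12 h. With 2 libraries a group the median SE of a log2 change was 0.158 against untreated and 0.129 against 4 to 12 h, which limits what small changes can be called.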

Other observations

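In further lists some members were higher at 2 h than at 4, 6 and 12 h, beside 7.00% higher and a median of 0.02 for all tested genes. Of 14 feedback genes and targets of FGF and ERK, 6 were higher and 8 did not pass, with a median log2 difference of 0.38 (3 and 4 higher without 2 h replicates 1 and 2). Etv4, an ETS factor, was at 2431 and 2497 at 2 h and from 944 to 2031 at 4 to 12 h (log2 0.73, adjusted p = 0.0024), and at 156 and 144 at 2 days. Of 20 genes of the G1/S transition and DNA replication, 8 were higher and 12 did not pass, with a median of 0.21 (2 higher with either 2 h library left out). Pcna, the replication clamp, was at 9929 and 9384 at 2 h and from 6194 to 9372 at 4 to 12 h (log2 0.34, adjusted p = 0.00053). Of 13 heat shock chaperones, 7 were higher and 6 did not pass, with a median of 0.22 (5 and 4 higher without 2 h replicates 1 and 2). Hspa8, a constitutive chaperone, was at 72290 and 73708 at 2 h, as high as 75729 at 4 h and as low as 34663 at 12 h (log2 0.43, adjusted p = 7.8e-05). Of 21 genes of hypoxia and glycolysis, 10 were higher, 1 was lower and 10 did not pass, with a median of 0.16 (4 and 3 higher without 2 h replicates 1 and 2). Against untreated, the calls in these lists were 1 higher and 2 lower for FGF and ERK, 2 lower for replication, 1 each way for heat shock and 3 lower for hypoxia and glycolysis. The higher shares were 7.14% for FGF and ERK and 7.69% for heat shock, beside 6.75% of all tested genes. In the same order of lists the lower shares were 14.3%, 10%, 7.69% and 14.3%, beside 8.45% of all tested genes.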
